A study of Mus musculus with 12 samples.

Results

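The genes described here are 9 genes of the interferon response, Cxcl10, Isg15, Irf1, Irf7, Irf9, Stat2, Ifit2, Ifitm3 and Ifih1, followed through the differentiation of mouse embryonic stem cells (mESCs) with and without a knockdown of cathepsin L. They were taken by symbol from the 24495 genes of the deposited count table, and all 9 were found there. They were chosen by function and, for Cxcl10, on its measured level, which was higher in the knockdown than in the control at Day 4. The comparison of the lines at Day 4 is therefore given for all 9 genes as a description without a test, and so is every change of Cxcl10 that involves Day 4.

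RNA was sequenced from CCE-Nanog-GFP mESCs, a line in which GFP reports Nanog and from which GFP+ cells were sorted before the experiments. The shSC line carries a scramble shRNA (genotype labelled WT), and the shCTSL line carries an shRNA against CTSL in the pLKO.1 vector (genotype labelled CTSL KD). Both lines were transduced with lentivirus and selected with puromycin, so both carry a vector insertion, and shCTSL rests on a lone shRNA construct. Each line was sampled as undifferentiated mESCs grown with LIF (Day 0) and as embryoid bodies (EBs) formed without LIF in all-trans retinoic acid (Day 2 and Day 4). The 6 groups of line and day hold 2 libraries each, which the study describes as biological replicates.

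Across the 12 libraries, totals ran from 11171111 to 27155553 counted reads. Replicates of 5 groups differed by a log2 ratio with an SD of 0.178 to 0.269 over genes, and those of shCTSL Day 2 by 0.604, so values of that group are the least precise. Ctsl, the targeted gene, was at 142 ± 7.15 CPM in shSC and 38.4 ± 1.23 in shCTSL at Day 0 (SD, n = 2), and at 453 ± 42.9 and 255 ± 3.31 at Day 4. The 6 pluripotency markers checked (Pou5f1, Nanog, Sox2, Zfp42, Esrrb and Klf4) summed to 4715 to 5156 CPM in the Day 0 libraries and to 252 to 328 CPM in the Day 4 libraries. CPM are read counts brought to a common library size with TMM scaling. "Called" stands for a change of at least 1.5-fold that also had an adjusted p below 0.05 in edgeR's quasi-likelihood test over 15532 genes, and changes are given in log2 units.

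Interferons are secreted proteins that warn cells of viral infection. Type I interferons bind a receptor of IFNAR1 and IFNAR2, whose kinases phosphorylate STAT proteins, STAT2 among them. A complex that holds STAT2 and IRF9 then binds interferon-stimulated response elements (ISREs) in the promoters of interferon-stimulated genes. Pluripotent stem cells are known for a weak interferon response that strengthens as they differentiate.

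The promoters of the genes were searched for the letters that the pathway's factors read, and 4 stretches are shown because they hold the core of the ISRE. The search covered the 250 bases before each gene's start in the RefSeq table of the GRCm38.p6 build, on both strands. The ISRE core was searched as GAAANNGAA, the interferon-gamma activated site (GAS) as TTCNNNGAA and an NF-kB site form as GGGANNTTC. In the lines that follow, which read 5′ to 3′ in the direction of each gene, capitals mark ISRE cores, read on the opposite strand in Stat2 and Ifih1, and in Cxcl10 also an NF-kB form.
Cxcl10 (chr5:92348890-92349139, minus strand): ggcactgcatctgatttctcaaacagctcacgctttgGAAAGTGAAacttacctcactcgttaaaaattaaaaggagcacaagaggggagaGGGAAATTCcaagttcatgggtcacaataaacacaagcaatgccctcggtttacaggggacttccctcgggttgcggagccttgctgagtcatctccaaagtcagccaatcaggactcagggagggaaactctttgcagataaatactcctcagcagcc
Isg15 (chr4:156200851-156200921, minus strand): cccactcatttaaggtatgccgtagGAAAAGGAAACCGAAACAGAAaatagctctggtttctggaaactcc
Ifih1 (chr2:62646334-62646392, minus strand): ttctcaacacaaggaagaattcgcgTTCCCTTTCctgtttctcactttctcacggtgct
Stat2 (chr10:128270252-128270310, plus strand): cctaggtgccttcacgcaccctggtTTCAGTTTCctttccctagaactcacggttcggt
The core was found in 4 of the 9 genes, against 8.18% of the 27025 genes of the table. Counted from the start, with negative numbers upstream, Isg15 held 3 overlapping cores between -78 and -58. Cxcl10 held its ISRE core at -213 to -205 and its NF-kB form at -159 to -151, Ifih1 its core at -112 to -104 and Stat2 its core at -221 to -213. The GAS form was found in Irf1 and Ifit2 (8.13% of all genes), and the NF-kB form in Cxcl10, Ifit2 and Ifitm3 (3.7%). A match of letters is a description of the window and not a binding site. Other forms of the NF-kB site were not searched, so the windows may hold such forms without a mark.

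The 9 genes stood at very different levels, which are compared between genes per kb of exon. Ifitm3, a membrane protein that blocks the entry of viruses, was at 274 ± 6.34 CPM per kb in shSC at Day 0 (SD, n = 2). The next highest at that day was Stat2, at 6.39 ± 0.152, followed by Irf1 at 5.22 ± 0.927, Irf9 at 4.11 ± 0.108 and Ifit2 at 2.0 ± 0.158. Stat2 and Irf1 differed by little more than the spread of Irf1. Isg15, Cxcl10, Ifih1 and Irf7 lay at or under 0.142 CPM per kb. At Day 4 in shSC the order below Ifitm3 (138 ± 10.8) was Stat2 (10.2 ± 0.556), Irf1 (8.19 ± 1.03), Ifit2 (5.26 ± 0.800) and Irf9 (5.15 ± 0.328). Of these neighbours Ifit2 and Irf9 did not differ beyond their spread. Cxcl10 followed at 0.685 ± 0.0639 CPM per kb in shSC, and at 2.46 ± 0.406 in shCTSL, where it still stood below Ifit2 (4.04 ± 0.774).

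**Figure D1:**
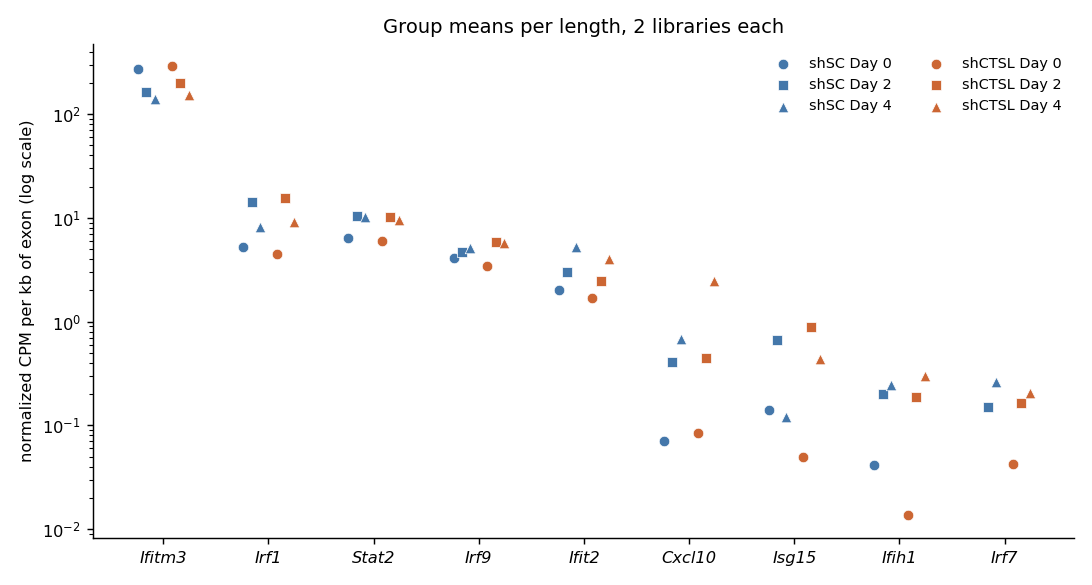
Mean level of each gene per group in normalized CPM per kb of exon on a log axis, with shSC in blue, shCTSL in orange and the day given by the symbol (n = 2 libraries a point). Group means of Ifitm3 lie between 138 and 288 CPM per kb, those of Isg15, Ifih1 and Irf7 at or under 0.892, and Irf7 in shSC at Day 0 had 0 counts and has no point.

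All 9 genes passed the filter on low counts, but Cxcl10, Isg15, Irf7 and Ifih1 had 0 to 6 counts per library at Day 0 and passed through the later days. Their tests against Day 0 thus set groups that brought them past the filter against a group near 0. No p-values are printed for those tests, and their calls are given as values and support no count. EBs are mixtures, and in bulk RNA fewer cells of a type and less RNA per cell cannot be told apart.

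Stat2 (chr10:127707629-127729905, plus strand, mm9) encodes the STAT that type I interferons bring into play. It was at 27.7 and 28.6 CPM in the shSC libraries at Day 0, at 46.6 and 44.6 at Day 2 and at 46.7 and 43.2 at Day 4. In shCTSL it was at 26.6 and 25.9, at 37.9 and 52.4, and at 42.1 and 42.3 CPM. In both lines every Day 2 and Day 4 library lay above every Day 0 library. Stat2 rose from Day 0 to Day 2 by 0.70 log2 units in shSC (SE 0.15, adjusted p = 0.00187) and by 0.78 in shCTSL (SE 0.15, adjusted p = 0.000972), and from Day 2 to Day 4 its change was -0.02 (SE 0.14) and -0.10 (SE 0.14). Without shCTSL Day 2 replicate 2, the shCTSL rise to Day 2 was 0.53 and under the 1.5-fold cutoff.

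Irf9 (chr14:56222408-56228867, plus strand, mm9) encodes the DNA-binding partner of STAT2. Its shSC libraries were at 21.7 and 22.6 CPM at Day 0, 26.5 and 24.1 at Day 2, and 29.0 and 26.5 at Day 4. The shCTSL libraries were at 18.0 and 19, at 29.7 and 32.6, and at 31.3 and 30.6 CPM. The shCTSL libraries thus lay below the shSC libraries at Day 0 and above them at Day 2 and Day 4. Irf9 rose from Day 0 to Day 2 in shCTSL by 0.76 log2 units (SE 0.12, adjusted p = 0.000279), while its change in shSC was 0.19 (SE 0.12, adjusted p = 0.167). The difference between these changes was 0.56 (SE 0.16) and did not pass the test over all genes (adjusted p = 0.39, unadjusted p = 0.00645). Without shCTSL Day 2 replicate 1, which leaves 1 library in the group, that difference was 0.63. Irf9 shares 123 exonic bases with Rnf31 on the same strand, and the sources used do not say how reads in such bases were assigned. Rnf31 was at 48.5 to 68.7 CPM (group means).

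Irf1 (chr11:53583516-53591876, plus strand, mm9) encodes a transcription factor induced by interferon gamma. Its shSC libraries were at 18.1 and 23.4 CPM at Day 0, at 58.0 and 55.9 at Day 2, and at 29.7 and 35.4 at Day 4. In shCTSL they were at 18.0 and 17.9, at 66.0 and 58.7, and at 34.8 and 37.6 CPM. Irf1 thus peaked at Day 2 in both lines, with no overlap between days. It rose from Day 0 to Day 2 by 1.45 log2 units in shSC (SE 0.15, adjusted p = 1.37e-05) and by 1.80 in shCTSL (SE 0.15, adjusted p = 3.67e-06). From Day 2 to Day 4 it fell by 0.81 in shSC (SE 0.14, adjusted p = 0.00197) and fell by 0.79 in shCTSL (SE 0.14, adjusted p = 0.00251). In a fit of the shCTSL Day 2 and Day 4 libraries alone, the latter fall had an adjusted p of 0.0689. At Day 4 it remained above Day 0, by 0.64 in shSC (SE 0.15, adjusted p = 0.00279) and by 1.01 in shCTSL (SE 0.15, adjusted p = 0.000165), and in shSC leaving out Day 0 replicate 1 or Day 4 replicate 2 took that change to 0.47 or 0.51, under the cutoff. Irf1 shares 135 exonic bases with Gm17334 on the opposite strand, a locus not analysed here.

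Irf7 (chr7:148448605-148452380, minus strand, mm9) encodes the factor that amplifies type I interferon production. No read was counted in the shSC libraries at Day 0, and 13 and 11 were counted at Day 2 and 28 and 5 at Day 4. The shCTSL libraries had 2 and 1 counts at Day 0, 7 and 13 at Day 2, and 13 and 11 at Day 4. All its levels stayed at or under 1.24 CPM. In shSC, Day 2 stood 4.42-fold and Day 4 8.69-fold above a floor of 3 counts over the Day 0 group. That floor is taken as the most that a count of 0 allows, with the later counts as they stand. With the counting error of both groups, the lower ends of the 95% exact intervals were 3.32 and 6.68. In shCTSL the ratio of Day 4 to Day 0 was 4.72 with a 95% exact counting interval of 1.43 to 24.5, and that of Day 2 to Day 0 was 3.84 with an interval of 1.14 to 20.2. These intervals cover counting error only. The shCTSL call for Day 4, a value only, was lost in DESeq2 and without any of the shCTSL Day 0, shCTSL Day 4 or shSC Day 2 libraries. Irf7 shares 45 exonic bases with Phrf1 on the opposite strand, which was at 135 to 201 CPM (group means), and the sources used do not give the strand setting of the counting.

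Ifih1 (chr2:62433850-62484312, minus strand, mm9) encodes MDA5, a sensor of double-stranded RNA. It had 6 and 0 counts in the shSC libraries at Day 0, 28 and 29 at Day 2, and 22 and 25 at Day 4. In shCTSL it had 2 and 0 counts, then 18 and 23, then 33 and 31. The Day 2 libraries of both lines lay above all Day 0 libraries. In shSC its change from Day 0 to Day 2 was 2.35 log2 units (SE 0.76), and from Day 0 to Day 4 it was 2.61 (SE 0.76). In shCTSL the ratio of Day 2 to Day 0 was 11.8 (counting interval 3.07 to 101) and that of Day 4 to Day 0 was 18.9 (5.02 to 159). All 4 changes were called, as values only, and rest on few counts at Day 0. The shSC calls for both days were lost without shSC Day 0 replicate 2, the library with 0 counts (changes of 1.28 and 1.52), or without the Day 2 or Day 4 replicate 2 compared. The shCTSL call for Day 2 was lost without shCTSL Day 0 replicate 2.

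**Figure D2:**
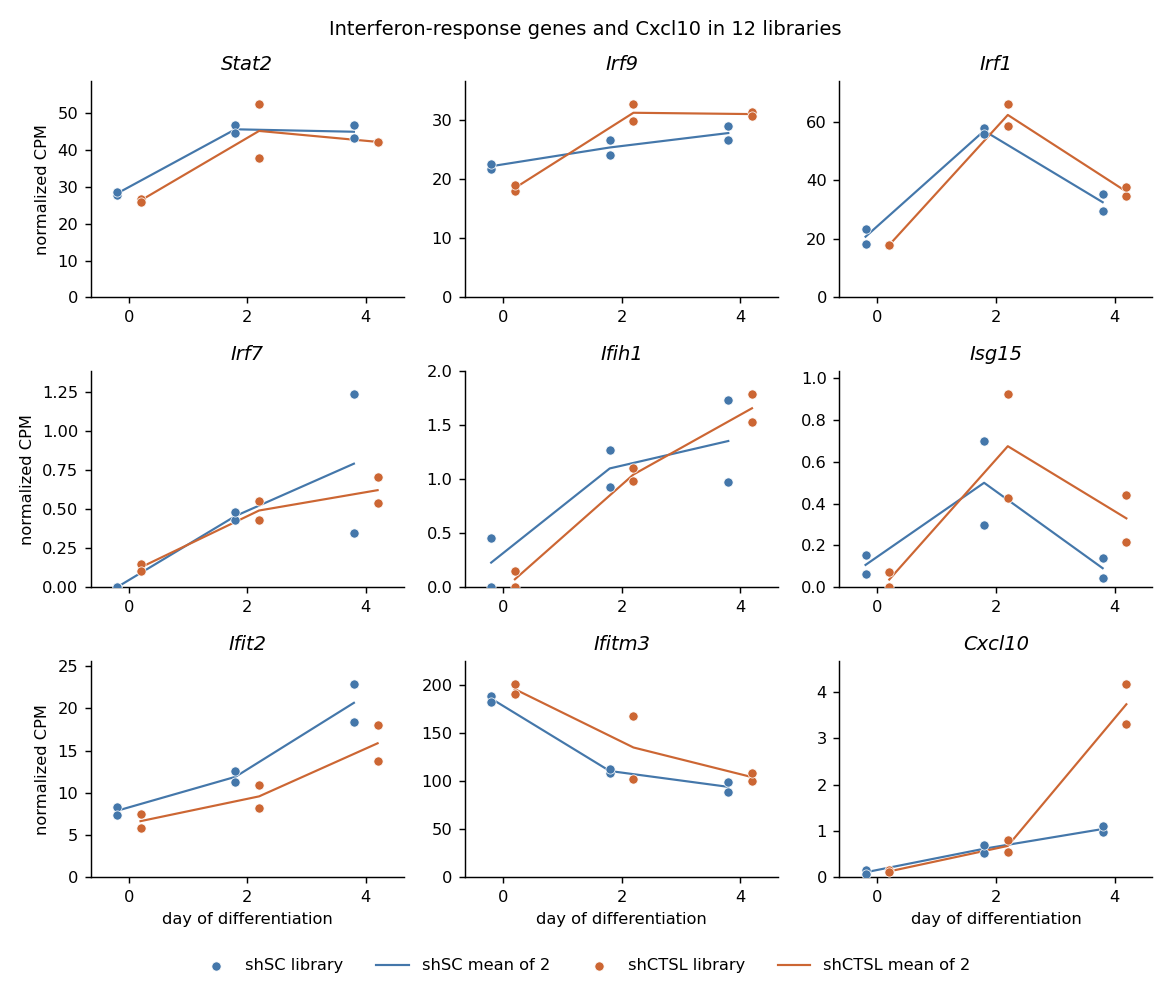
Normalized CPM of each gene in each of the 12 libraries (points) by day of differentiation, with lines joining the means of 2 replicates, shSC in blue and shCTSL in orange, and a separate linear axis from 0 for each gene. Irf1 and Isg15 have their highest mean at Day 2, Ifitm3 at Day 0, and Cxcl10 stands at 4.17 and 3.30 CPM in shCTSL at Day 4 against 0.972 and 1.11 in shSC.

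Isg15 (chr4:155573533-155574927, minus strand, mm9) encodes a ubiquitin-like protein that is attached to other proteins in interferon-treated cells. It had 2 and 1 counts in the shSC libraries at Day 0, 9 and 16 at Day 2, and 1 and 2 at Day 4. In shCTSL it had 1 and 0 counts, then 15 and 10, then 4 and 9. All levels were at or under 0.923 CPM. Counts at Day 2 were higher in both lines. The ratio of Day 2 to Day 0 was 4.60 in shSC (counting interval 1.40 to 23.8) and 14.4 in shCTSL (2.36 to 591). From Day 2 to Day 4 the ratio was 0.172 in shSC (0.0332 to 0.562) and 0.533 in shCTSL (0.250 to 1.08). Isg15 came near the minimum of the filter only at Day 2, so no p-value is given for these changes.

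Ifit2 (chr19:34625184-34650909, plus strand, mm9) encodes an antiviral RNA-binding protein. Its shSC libraries were at 8.31 and 7.44 CPM at Day 0, 12.5 and 11.2 at Day 2, and 22.9 and 18.4 at Day 4. The shCTSL libraries were at 5.82 and 7.48, at 8.18 and 11, and at 18.0 and 13.7 CPM. The 3 days did not overlap in either line. Ifit2 rose from Day 0 to Day 4 by 1.40 log2 units in shSC (SE 0.21, adjusted p = 0.000194) and by 1.27 in shCTSL (SE 0.22, adjusted p = 0.000527). Of its steps, Day 0 to Day 2 was called in shSC (0.60, SE 0.21, adjusted p = 0.0298) and not in shCTSL (0.55, SE 0.22, adjusted p = 0.0537), and Day 2 to Day 4 was called in both, at 0.80 (SE 0.20, adjusted p = 0.0132) and 0.72 (SE 0.21, adjusted p = 0.0249). These steps were near the threshold. Leaving out any of the 4 libraries behind it ended the shSC call to Day 2 (0.52 to 0.68). Also lost were the shSC call from Day 2 to Day 4 without either Day 2 library or Day 4 replicate 1 (0.63 to 0.88), and the shCTSL call for that step without Day 2 replicate 1 or Day 4 replicate 1 (0.50 and 0.51) or in a fit of the libraries compared (adjusted p = 0.184).

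Ifitm3 (chr7:148195485-148196669, minus strand, mm9) was the gene of the 9 called lower than at Day 0. Its shSC libraries were at 189 and 182 CPM at Day 0, 109 and 112 at Day 2, and 99.0 and 88.7 at Day 4. The shCTSL libraries were at 201 and 190, at 167 and 102, and at 100 and 108 CPM. In shCTSL at Day 2, replicate 1 lay between the other days and replicate 2 at the Day 4 level. From Day 0 to Day 4 Ifitm3 fell by 0.98 log2 units in shSC (SE 0.19, adjusted p = 0.000921) and fell by 0.91 in shCTSL (SE 0.19, adjusted p = 0.00155). By Day 2 it had fallen by 0.75 in shSC (SE 0.19, adjusted p = 0.00522), and the change in shCTSL was -0.54 (SE 0.19, adjusted p = 0.0273), smaller than 1.5-fold. In the IFITM family besides it, 3 of 4 genes tested were called higher by Day 2 in shSC (29.3% of all genes) and 4 of 4 in shCTSL (30.9%). Its close relatives Ifitm1 and Ifitm2, with related sequences between which reads could be split, moved the other way by Day 2. Ifitm1 was at 146 ± 0.212 CPM in shSC at Day 0 and 220 ± 4.45 at Day 2 (SD, n = 2), a rise of 0.59 (SE 0.20, adjusted p = 0.0225), and Ifitm2 rose from 214 ± 27.1 to 323 ± 19.5 CPM, by 0.59 (SE 0.13, adjusted p = 0.00247). In shCTSL Ifitm1 rose by 1.03 (SE 0.20, adjusted p = 0.00113) and Ifitm2 by 1.01 (SE 0.13, adjusted p = 7.38e-05).

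Cxcl10 (chr5:92775664-92777915, minus strand, mm9) encodes a chemokine that draws T cells and natural killer cells through the receptor CXCR3. It had 2 and 1 counts in the shSC libraries at Day 0, 16 and 16 at Day 2, and 22 and 16 at Day 4. In shCTSL it had 2 and 1 counts, then 13 and 13, then 77 and 67. Libraries of the lines overlapped at Day 0 and Day 2, and the shCTSL Day 4 libraries stood above all others. The ratio of Day 2 to Day 0 was 5.89 in shSC (counting interval 1.84 to 30.1) and 4.99 in shCTSL (1.53 to 25.8). As a description, the shCTSL level at Day 4 was 5.67 times that at Day 2 (counting interval 3.72 to 8.98) and the shSC level 1.70 times (1.03 to 2.81). In CPM, Day 4 stood at 3.73 ± 0.617 in shCTSL and 1.04 ± 0.0971 in shSC (SD, n = 2). Cxcl10 shares 133 exonic bases with Art3 on the opposite strand, which had 7 counts in shCTSL and 4 in shSC over the Day 4 libraries. Without the strand setting, reads in the shared bases cannot be assigned with certainty. Its receptor gene Cxcr3 had 8 and 10 counts there.

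Among the 5 genes with at least 10 counts in every library, 3 were called higher by Day 2 in shSC (Irf1, Stat2 and Ifit2) and 1 lower (Ifitm3). Of all genes tested, 29.3% were called higher and 25.3% lower. In shCTSL 3 of the 5 were called higher (Irf1, Irf9 and Stat2) and 0 lower (all genes 30.9% and 24.6%). Of the 4 genes that passed the filter through the later days, Cxcl10, Irf7 and Ifih1 were also called higher in shSC. In shCTSL these were Cxcl10, Isg15 and Ifih1. Those calls are values only and are left out of the counts. A gene called in a single line is not thereby shown to differ between the lines. EdgeR called 0 of 9 for the difference between the lines in this change, and 0% of all genes. At an unadjusted p under 0.05 it gave 1 of the 9 (Irf9), and DESeq2 called 0 and gave 1 at that level. The share of all genes at that level is not given, so these counts are not a result about the 9 genes.

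From Day 2 to Day 4, with Cxcl10 left out, 1 of 8 genes was called higher (Ifit2) and 1 lower (Irf1) in shSC, and the same counts and names held in shCTSL. The shares over all genes were 11.4% higher and 12.4% lower in shSC, and 11.0% and 12.4% in shCTSL. These counts of 2 fell to 1 without shSC Day 2 replicate 2 or Day 4 replicate 1 in shSC, and without Day 2 replicate 1 or Day 4 replicate 1 in shCTSL. Over the whole course, from Day 0 to Day 4, the 5 genes with at least 10 counts in every library were counted. Of these, 3 were called higher and 1 lower in shSC (all genes 32.1% and 28.7%), and 4 and 1 in shCTSL (32.3% and 27.6%). Irf7 and Ifih1, which passed the filter through the later days, were also called higher in each line and are left out of these counts.

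**Figure D3:**
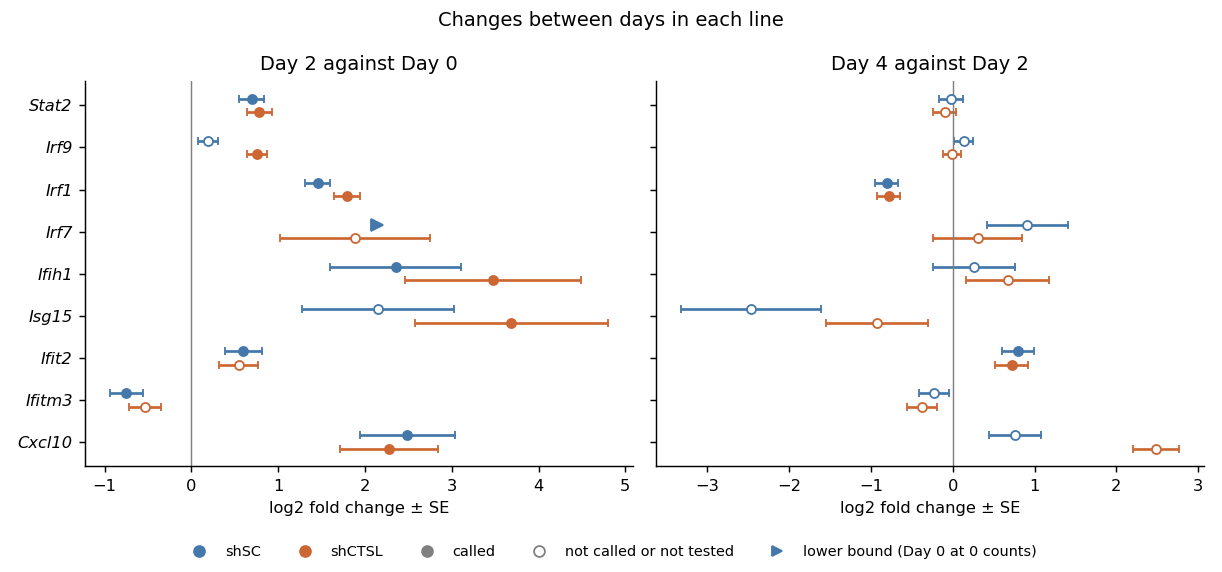
Log2 fold change with its SE for each gene from Day 0 to Day 2 (left) and from Day 2 to Day 4 (right), shSC in blue and shCTSL in orange, with filled points where the gene was called and open points where it was not called or, for Cxcl10 at Day 4, not tested. Irf1 lies right of 0 in the left panel and left of 0 in the right panel in both lines, and Ifitm3 lies left of 0 throughout. The arrow sets Irf7 in shSC, which had 0 counts at Day 0, against a floor of 3 counts.

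Between the lines, 0 of the 9 genes were called at Day 0 or Day 2 by edgeR, where 0.0386% and 0.0644% of all genes were called. At an unadjusted p under 0.05 there was 0 of 9 at Day 0 and 1 of 9 at Day 2, Irf9, and DESeq2 called 0 and gave the same 0 and 1. Here too the share of all genes at that level is not given, and the unadjusted counts are a description. Adjusted p-values ranged from 0.697 to 0.988 at Day 0 and from 0.224 to 0.966 at Day 2. Libraries of the lines did not overlap for 5 of the 9 genes at Day 0 and 3 at Day 2, against 51.3% and 45.5% of all genes. For the genes with more counts the differences were small: Irf1, Irf9, Stat2, Ifit2 and Ifitm3 lay between -0.26 and 0.07 at Day 0, and between -0.31 and 0.30 at Day 2. For Cxcl10 at Day 2 the ratio of shCTSL to shSC was 1.08 (counting interval 0.620 to 1.88). Without shCTSL Day 2 replicate 2, the Ifitm3 difference at Day 2 was 0.60. That fit leaves 1 library in the group, at 167 CPM against 102 in the library left out, so the size alone is given.

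At Day 4, as a description, libraries of the lines did not overlap for 6 of the 9 genes (4 higher in shCTSL, 2 lower), and the same held for 61.5% of all genes. Cxcl10 was 1.85 log2 units higher in shCTSL (SE 0.26), with a ratio of summed counts of 3.62 (counting interval 2.52 to 5.32). Isg15 was 1.95 higher (SE 0.95), but on 13 counts against 3, a ratio of 4.14 (1.14 to 22.6), and its difference ran from 1.22 without shSC Day 4 replicate 1 to 2.74 without shSC Day 4 replicate 2. The others lay closer to 0. Irf9 differed by 0.16 (SE 0.11), Irf1 by 0.15 (SE 0.14), Ifitm3 by 0.15 (SE 0.19), Stat2 by -0.09 (SE 0.14) and Ifit2 by -0.39 (SE 0.20). Irf7 (-0.47, SE 0.50) and Ifih1 (0.34, SE 0.49) changed sign without shSC Day 4 replicate 1, to 0.82 and -0.07. The median over the 9 genes was 0.15, beside -0.00452 over all genes. The Cxcl10 difference stayed between 1.66 and 2.01 with each library left out in turn. The Day 4 libraries of the lines also stood apart in other measures: 19398 and 20160 genes had a read in shCTSL against 18881 and 18089 in shSC, and the ribosomal RNA precursor Rn45s took 0.376% and 0.228% of counts against 1.44% and 1.06%. Their part in these differences was not tested.

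**Figure D4:**
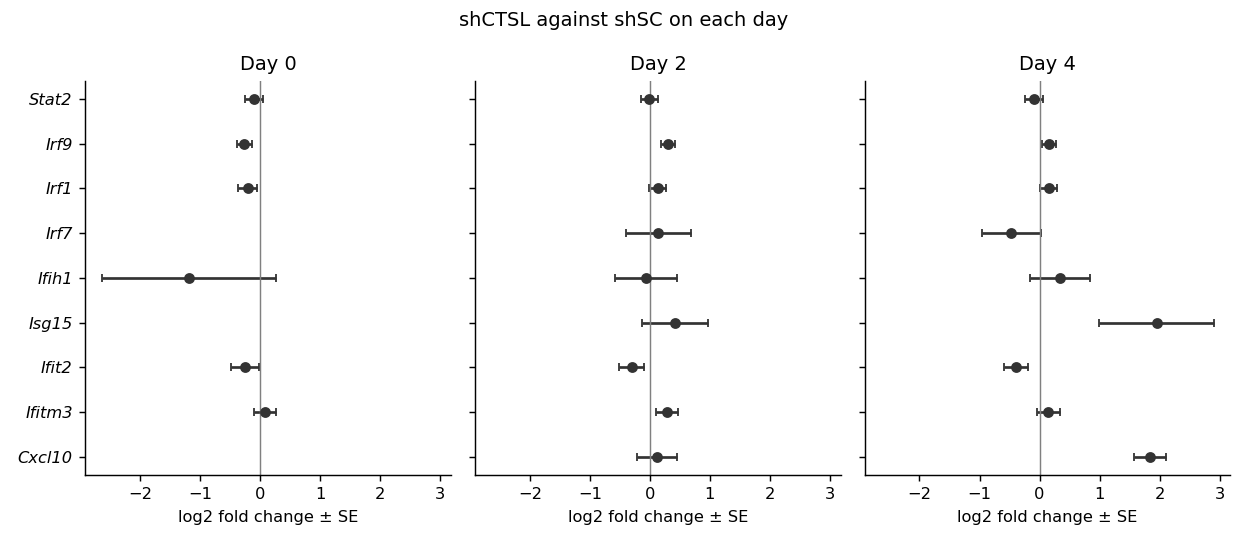
Log2 fold change of shCTSL against shSC with its SE for each gene on each day. At Day 4 Cxcl10 and Isg15 lie at 1.85 and 1.95 and the other genes between -0.47 and 0.34, and Irf7, Isg15 and Cxcl10 are not drawn at Day 0, where neither line had more than 3 counts over its libraries.

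Levels of markers of other cell types were set beside the Cxcl10 difference at Day 4. A list of 10 leukocyte markers summed to 11.7 to 13.3 CPM in the shCTSL libraries and 11.5 to 14.2 in shSC at Day 4, with overlap. The 6 endothelial markers summed to 236 to 289 CPM in shCTSL and 310 to 328 in shSC, 6 fibroblast markers to 430 to 459 and 449 to 462, and 6 endoderm markers to 272 to 289 and 243 to 267. The endothelial sum was thus lower and the endoderm sum higher in shCTSL without overlap, and their part in the Cxcl10 difference was not tested.

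The interferons themselves were at or near 0. None of the 19 interferon genes in the table passed the filter, and 9 to 16 of them had 0 counts in a group. Of these, the genes of interferon beta and gamma are named for their role, after their values were seen. Ifnb1, the interferon beta gene, had 0 counts in all 12 libraries, which allows up to 0.0566 to 0.131 CPM over a group. Ifng, the interferon gamma gene, had 1 to 6 counts over a group. Summed over the 19 genes, levels were 0.271 to 0.836 CPM in the shCTSL libraries at Day 4 and 0.221 to 0.277 in shSC, and at most 0.381 at the earlier days.

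The other genes of the pathway were taken as lists by role, with 98 genes tested in all besides the 9. By Day 2, 50 of the 98 were called higher and 10 lower in shSC, and 51 and 13 in shCTSL, with medians of 0.98 and 0.78 log2 units (all genes 29.3% and 25.3% in shSC, 30.9% and 24.6% in shCTSL, medians 0.02 and 0.08). Genes of these lists too may have passed the filter through the days when they are high. From Day 2 to Day 4 the counts were 19 and 18 in shSC and 21 and 17 in shCTSL, with medians of 0.05 and 0.06 (all genes 11.4% and 12.4% in shSC, 11.0% and 12.4% in shCTSL, medians 0.02 and -0.02). Between the lines edgeR called 0 of the 98 at Day 0 and 0 at Day 2, with 4 and 17 at an unadjusted p under 0.05, and DESeq2 called 0 on both days with 2 and 13 at that level. For the difference between the lines in the change to Day 2, edgeR called 0 of 98 with 10 at an unadjusted p under 0.05, and DESeq2 0 with 9. The share of all genes at an unadjusted p under 0.05 is not given here. The counts at that level therefore cannot be read as a result about the pathway genes.

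Of 10 receptors, kinases and STATs tested besides Stat2 and Irf9, 6 were called higher and 1 lower by Day 2 in shSC (median 1.03), and 7 and 2 in shCTSL (median 1.25). Over all genes the shares were 29.3% and 25.3% in shSC, and 30.9% and 24.6% in shCTSL. Il10rb, a receptor chain shared with interferon lambda, went from 0.584 ± 0.0370 to 7.89 ± 0.256 CPM in shSC (SD, n = 2), Jak2, a kinase of the interferon gamma receptor, from 9.17 ± 0.181 to 56.9 ± 0.519, and Ifngr1, a chain of that receptor, from 4.62 ± 0.0465 to 18.6 ± 1.66. Ifnar1, a chain of the type I interferon receptor upstream of Stat2 and Irf9, was picked after its values were seen. Ifnar1 rose by 1.04 in shSC (SE 0.11, adjusted p = 1.94e-05) and by 1.18 in shCTSL (SE 0.11, adjusted p = 8.49e-06).

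Among the other IRF factors, Irf2 was called higher by Day 2 in both lines. Irf2, a repressor and activator at ISREs, rose in shSC from 0.176 ± 0.0741 to 11.3 ± 0.213 CPM, and in shCTSL from 0.261 ± 0.369 to 8.39 ± 2.82 (SD, n = 2). Nucleic acid sensing split: of 14 tested besides Ifih1 and Irf7, 2 were called higher and 2 lower by Day 2 in each line (medians 0.13 and 0.15, or -0.01 and 0.15 with a gene at 0 counts set at the floor). Shares over all genes were 29.3% and 25.3% in shSC, and 30.9% and 24.6% in shCTSL. Tmem173, which encodes STING, rose from 3.14 ± 0.122 to 13.3 ± 0.921 CPM in shSC. Ddx58, which encodes RIG-I, the relative of the sensor encoded by Ifih1, fell by 1.94 log2 units in shSC (SE 0.19, adjusted p = 1.34e-05) and fell by 2.22 in shCTSL (SE 0.20, adjusted p = 5.78e-06). Ifih1 had more counts at Day 2, but from 6 and 0 counts at Day 0 in shSC and 2 and 0 in shCTSL. Its calls are therefore not set against those of Ddx58.

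Of 35 interferon-stimulated effectors tested besides Isg15, Ifit2 and Ifitm3, 20 were called higher and 4 lower by Day 2 in shSC, and 18 and 5 in shCTSL. Their median was 1.18 in shSC and 1.02 in shCTSL, or 1.02 and 1.01 with genes that had 0 counts in a group set at the floor of 3 counts. Over all genes, 29.3% were called higher and 25.3% lower in shSC, and 30.9% and 24.6% in shCTSL. Uba7, the activating enzyme of ISG15, had 0 counts in both lines at Day 0 and was at 2.46 ± 0.238 CPM in shSC and 3.26 ± 0.270 in shCTSL at Day 2 (SD, n = 2). From Day 2 to Day 4, 6 effectors were called higher and 10 lower in shSC (all genes 11.4% and 12.4%). In shCTSL these were 6 and 6 (all genes 11.0% and 12.4%). Iigp1, an interferon-induced GTPase, was highest in change there, in shSC from 0.198 ± 0.0949 to 12.1 ± 0.800 CPM, and in shCTSL, where Day 2 held 2 counts, from 0.0615 ± 0.0870 to 7.39 ± 1.96.

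The class I antigen presentation genes are known targets of interferon gamma and of Irf1. By Day 2, 10 of 11 were called higher and 0 lower in both lines, with medians of 2.72 in shSC and 2.62 in shCTSL. All-gene shares were 29.3% higher and 25.3% lower in shSC, and 30.9% and 24.6% in shCTSL. From Day 2 to Day 4, 1 was called higher and 6 lower in shSC (median -1.60, all genes 11.4% and 12.4%). In shCTSL these were 1 and 5 (median -0.83, all genes 11.0% and 12.4%). Genes of the list near 0 at Day 0, such as Psmb8, may have passed the filter through Day 2. Psmb8, an immunoproteasome subunit, stood at 0.0620 ± 0.0876, 4.13 ± 0.211 and 0.684 ± 0.405 CPM at Day 0, 2 and 4 in shSC (SD, n = 2). Tap2, a peptide transporter, stood at 0.553 ± 0.0808, 9.63 ± 0.244 and 2.13 ± 0.819 CPM. Between the lines the median of the 11 genes was 0.55 at Day 2, with 0 called by edgeR, and 0.58 at Day 4 as a description.

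Among the negative regulators of the pathway, 1 of 6 was called higher and 2 lower by Day 2 in shSC, and 2 and 2 in shCTSL. Shares over all genes, here and for the NF-kB targets below, were 29.3% and 25.3% in shSC, and 30.9% and 24.6% in shCTSL. Usp18, which removes ISG15 and blocks the interferon receptor, had 1 count in shSC and 0 in shCTSL at Day 0 and was at 2.48 ± 0.0817 and 4.57 ± 2.07 CPM at Day 2 (SD, n = 2). Socs3, a feedback inhibitor of JAK kinases, fell by 3.92 in shSC (SE 0.12, adjusted p = 1.01e-08) and fell by 3.68 in shCTSL (SE 0.12, adjusted p = 1.59e-08). Of 10 NF-kB targets tested, 2 were called higher and 1 lower in shSC, and 4 and 2 in shCTSL (medians -0.05 and 0.60, the latter 0.55 with a gene at 0 counts set at the floor).

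Of the 16 chemokine genes and Cxcr3 in the list besides Cxcl10, 7 were tested. By Day 4 all 7 were called higher than at Day 0 in shSC and 6 in shCTSL (all genes 32.1% and 32.3%). The whole list, with Cxcl10, summed to only 3.53 to 5.67 CPM in the Day 0 libraries. The genes tested may thus have passed the filter through the later days, and the count supports no rise of the list. At Day 4 the median difference between the lines over these 7 was -0.54 log2 units, given as a description. Cxcl12, which draws cells through CXCR4, rose in shSC from 1.48 ± 0.486 CPM at Day 2 to 125 ± 20.4 at Day 4, and in shCTSL from 1.63 ± 0.825 to 158 ± 19.3 (SD, n = 2). The closest relatives of Cxcl10, Cxcl9 and Cxcl11, which share its receptor, were not tested and are named after their values were seen, as is Cxcr3. Cxcl9 had 7 counts in shCTSL and 1 in shSC at Day 4, and Cxcl11 had 4 and 1.

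**Figure D5:**
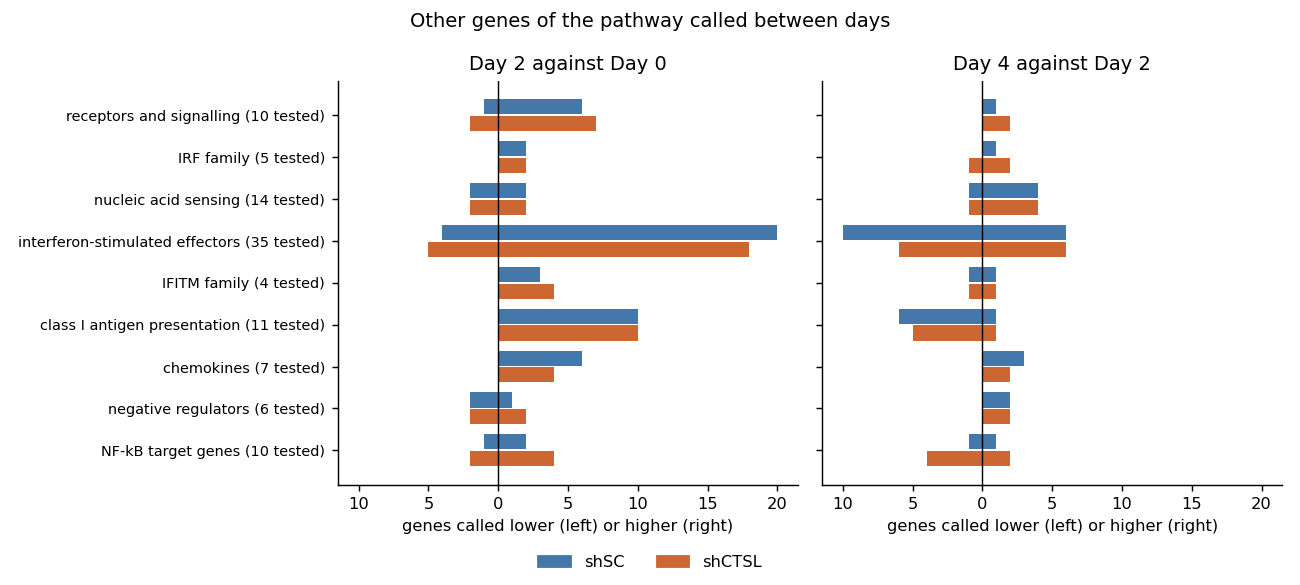
Number of genes called higher (right of 0) or lower (left of 0) in each list of pathway genes, without the 9 genes described, from Day 0 to Day 2 (left panel) and from Day 2 to Day 4 (right panel), shSC in blue and shCTSL in orange. The class I genes stand at 10 higher by Day 2 in both lines and at 6 and 5 lower by Day 4, and the effectors at 20 and 18 higher by Day 2. Of all genes tested, 29.3% in shSC and 30.9% in shCTSL were called higher by Day 2, and 12.4% lower from Day 2 to Day 4 in each line.

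Over the 12 libraries, which share lines and days, the 9 genes were compared in pattern by Pearson's r of log2(CPM + 0.5), given as a description. Cxcl10 was most like Ifih1 (r = 0.828), Isg15 and Irf1 were most like each other (r = 0.836), and Irf9 and Stat2 likewise (r = 0.856). Ifitm3 ran against all the others, from -0.238 with Isg15 to -0.919 with Stat2. Among all genes tested, without predicted loci, the 5 most like Cxcl10 were Hoxa13 (0.995), Timd2 (0.985), Dio3os (0.970), Alppl2 (0.953) and Chst9 (0.95). All 5 had their highest mean in shCTSL at Day 4, between 0.908 CPM for Timd2 and 2.32 CPM for Dio3os, and all were at or under 0.0746 CPM at Day 0, so that the correlations rest on few counts.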

How the data were processed

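Poly(A) RNA from 12 libraries, 2 for each line and day, was analysed from the deposited table of counts. Per the study's methods, the authors aligned reads to mm9 with STAR (2.3.0e), filtered them with SAMtools (0.1.19) and made the counts per RefSeq gene with featureCounts (1.6.2). The strand setting was not stated in the sources used.

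Counts were fitted in edgeR 4.0.16 (R 4.3.3) with TMM scaling, the group means of all 12 libraries and the quasi-likelihood test, on 15532 of 24495 genes kept by filterByExpr with a minimum count of 10. Adjusted p-values are Benjamini-Hochberg values across the whole set of 15532. Changes from groups with 1 to 3 counts are ratios of summed counts with 95% exact intervals, and a group at 0 was set at a floor of 3 counts over the group. Exon lengths and positions came from the mm9 gene models, and promoters from RefSeq (GRCm38.p6). DESeq2 1.42.0, RLE scaling, other filters, a stricter fold cutoff, a replicate block and leaving out each library were tried as alternatives. Scripts were tested on simulated data. The fit assumed independent libraries, and p-values measure the spread between them.

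The 9 genes and all lists were chosen with earlier results of these data known. Of the lists, up to 3 called genes with the largest change per comparison were eligible to be named, without predicted loci, and genes named outside that rule are said to be. Some pathway genes are not reported here.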

Additional observations from a re-analysis of the deposited data

How the results depend on the processing

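With a cutoff of 1.5 log2 units, the genes still called by Day 2 in shSC were Cxcl10, Irf7 and Ifih1. From Day 0 to Day 4 they were Irf7 and Ifih1 in each line, with Cxcl10 not tested. All of these passed the filter through the later days, so their calls are values only and support no count. From Day 2 to Day 4, 0 were called at that cutoff in shSC and also 0 in shCTSL. With only the libraries compared in the fit, 0 were called from Day 2 to Day 4 in shCTSL. Leaving out each library in turn gave 5 to 8 calls by Day 2 in shSC, 4 to 8 in shCTSL, 1 to 3 from Day 2 to Day 4 in each line, 4 to 6 from Day 0 to Day 4 in shSC and 6 to 8 in shCTSL. Between the lines, the Ifitm3 difference at Day 2 was 0.60 without shCTSL Day 2 replicate 2. The Irf9 difference in the change to Day 2 was 0.63 without shCTSL Day 2 replicate 1. Each of these fits rests on 1 library of that group. The Day 4 difference of Cxcl10 ran from 1.664 to 2.006, that of Isg15 from 1.224 to 2.741, that of Irf7 from -0.9932 to 0.8214 and that of Ifih1 from -0.07255 to 0.7581, the reversed signs of Irf7 and Ifih1 being without shSC Day 4 replicate 1. The cause was not tested.

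Of the 43 changes that were called or described, a called change counted as kept where its direction and call held. A change described without a test counted as kept where it moved by no more than the replicate SD on the log2 scale. RLE scaling and no filter on low counts each kept 43, DESeq2 kept 41, and the filter of 1 CPM in 2 libraries kept 37 of the 37 it could give. A fit of only the libraries compared kept 35 and lost 2 calls. Leaving out a single library kept fewer than 43 in every case, and each such fit leaves 1 library in a group. Leaving out both shCTSL Day 2 libraries, an alternative chosen after seeing the data, kept 33 of 33. Deviations of same-numbered libraries correlated between -0.465 and 0.257 over pairs of groups. Such correlations cannot decide whether replicate numbers pair the samples, and the main fit assumed no pairing. With a replicate block, Cxcl10 at Day 4 differed by 1.851, and 43 of 43 changes were kept. Genes with 0 to 6 counts at Day 0 are limited by depth.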
